A study of Mus musculus with 12 samples.

Results

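All 12 libraries of a muscle fibre study were compared by fibre type: 6 libraries of type I fibres against 6 of type IIb fibres. The comparison was one additive model in which training was a covariate, so that a single fibre type coefficient, type I minus type IIb, was estimated for each gene from both training arms. Members were assigned by the sample titles, and all 12 of the 12 libraries of the series entered. The mice were male C57BL/6J, labelled 8 weeks of age, and every group carried the same strain, sex and age labels. Type I untrained (3 libraries) and type I trained (3) fibres came from the soleus, and type IIb untrained (3) and type IIb trained (3) fibres from the extensor digitorum longus. Training was treadmill running for 6 weeks, 5 days a week and 60 min a day at 12 to 16 m/min, with tissue taken 3 days after the last run. Collagenase digestion lasted 90 min for soleus and 60 min for extensor digitorum longus, so fibre type, muscle and digestion time cannot be told apart here. Each fibre was split, with one piece typed by its myosin heavy chain protein and the other sequenced. How many fibres or mice stand behind a library is not stated in the labels, so every p-value below reflects the spread among these 12 libraries only, and that spread may be technical.

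Skeletal muscle fibres differ in the isoforms from which the sarcomere, the sarcoplasmic reticulum and the energy-supplying pathways are built. Type I fibres contract slowly, use the slow myosin heavy chain encoded by Myh7, and rely on mitochondrial oxidation for long activity, as in the postural soleus muscle. Type IIb fibres are the fastest fibres of the mouse, use the heavy chain encoded by Myh4, and draw on glycogen, glycolysis and phosphocreatine for short bursts.

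Library totals ranged from 8026397 to 24995288 counts. Levels per gene are given as CPM, the count relative to the TMM-scaled library size, and each group is described by its lowest, median and highest library. Fibres had been typed by myosin protein, so the myosin transcripts check the labels, and they matched them in all 12 libraries: Myh7 made up 80.5% to 99.8% of the counts of the Myh7, Myh2, Myh1 and Myh4 genes in type I libraries, and Myh4 made up 99.7% to 100.0% in type IIb libraries. Replicate 1 of the type I untrained group was the least pure, with 10.5% Myh2 and 8.92% Myh1, the markers of type IIa and IIx fibres. Markers of other cells were higher in some type I libraries. The summed level of the 16 endothelial markers ran from 1.96 to 2132 CPM in type I and from 0 to 390.0 CPM in type IIb libraries, with no marker at 0 throughout either fibre type. The 12 fibroblast markers summed to between 28.0 and 9262 CPM in type I and between 0.105 and 190.5 CPM in type IIb libraries, and the top value belonged to type I untrained replicate 3. The 6 tendon markers ran from 0.516 to 4521 CPM in type I and from 0 to 327.8 CPM in type IIb libraries, where Mkx, Fmod and Comp were at 0 in all 6. The 5 erythroid markers summed to at most 52.3 CPM in any type IIb library and to 1616 CPM in replicate 1 of the type I untrained group. None of the 14 endothelial markers tested passed in edgeR (0 at an unadjusted p under 0.05, 0 by DESeq2 and 0 by limma-voom), and 1 of 10 fibroblast markers, Mfap5, did. The part of these other cells in the results was not tested, and less RNA per cell and fewer cells of a type cannot be told apart.

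A mean of 10049 genes ± 3271 (SD, n = 6) reached 10 counts in type I libraries, and 6657 ± 2839 (SD, n = 6) did in type IIb libraries. The fibre type difference in genes detected, 3392, did not pass an exact two-sided permutation of fibre type within training arms (p = 0.08, adjusted p = 0.08 over 2 values, smallest possible p = 0.005). It passed when type IIb trained replicate 3, the type IIb library with the most genes, was left out (p = 0.035, exact permutation, difference 4247). The 13 protein genes of the mitochondrial genome took 12.3% ± 6.68 (SD, n = 6) of counts in type I and 21.4% ± 1.01 (SD, n = 6) in type IIb libraries. This difference of -9.03 percentage points passed (p = 0.02, adjusted p = 0.04, exact permutation). The type IIb libraries were tightly grouped between 19.8% and 22.7%, whereas type I libraries ran from 3.96% to 24.5%, the highest being type I trained replicate 2.

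**Figure D1:**
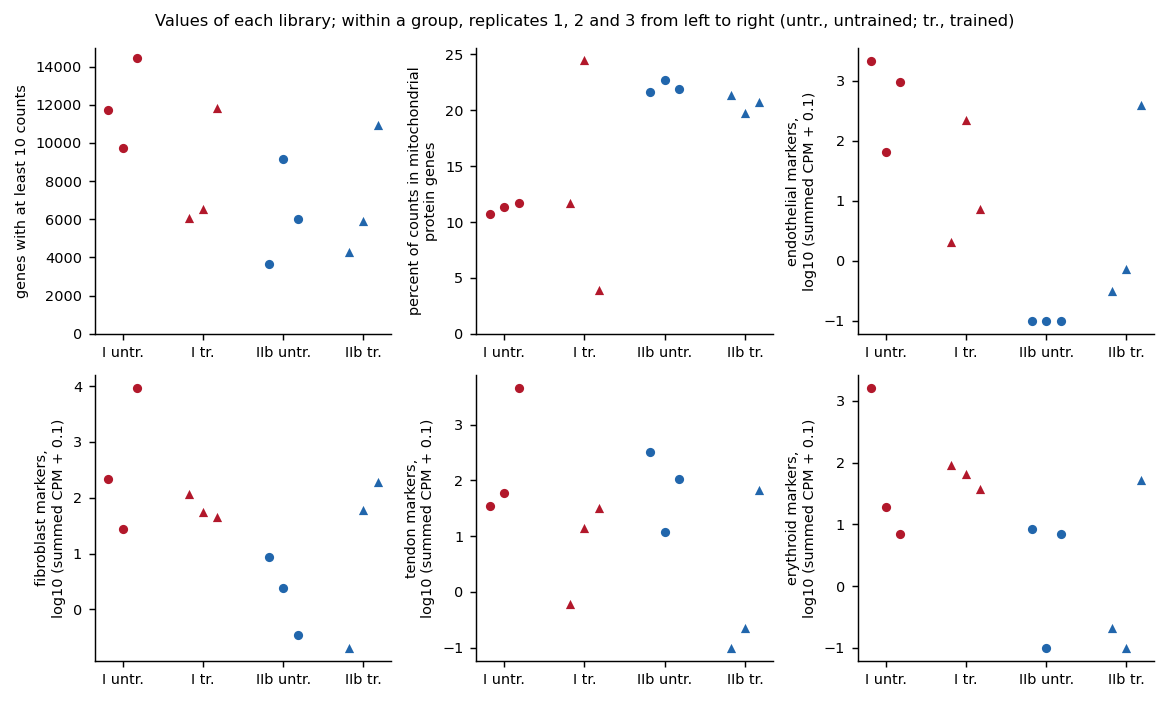
Genes with at least 10 counts, percent of counts in mitochondrial protein genes, and summed CPM of 4 marker lists (without TMM scaling, log10 axis) in each library, with type I in red, type IIb in blue, circles for untrained and triangles for trained libraries. The mitochondrial share of type IIb libraries lies between 19.8% and 22.7%, and the highest fibroblast and tendon sums are in type I untrained replicate 3.

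The filter on low counts left 11747 genes, and the fibre type coefficient of 193 (1.64%) passed at a Benjamini-Hochberg adjusted p of 0.05 (edgeR, quasi-likelihood). Type I was higher for 109 of them (0.928%) and type IIb for 84 (0.715%). The log2 difference over all genes tested had a median of 0.58, and list medians below are read beside that value. It was 0.28 without type IIb untrained replicate 1, 0.96 without type IIb trained replicate 3 and 1.14 without TMM scaling. At the unadjusted level, 1451 genes had a p under 0.05, of which 1114 were higher in type I. Full separation, with all 6 libraries of one fibre type above all 6 of the other, was found for 419 genes (3.57%), with type I above for 294 (2.5%) and type IIb above for 125 (1.06%). It was found for 95 of the 109 and 69 of the 84 called genes. Type IIb libraries held no count at all of 30 of the called genes higher in type I, and type I libraries held none of 3 called genes higher in type IIb. Without TMM scaling the split was 142 higher and 54 lower, 72.4% higher against 56.5% in the fit with TMM. Leaving out single libraries moved the counts by over 1.5 times for type I untrained replicate 3 (70 higher, 52 lower), type I trained replicate 3 (54 lower) and type IIb untrained replicate 2 (66 higher, 52 lower). The call survived every one of the 12 leave-outs for 53 of the 109 and 42 of the 84 genes. With the 3 libraries of highest endothelial markers left out (type I untrained replicates 1 and 3 and type IIb trained replicate 3), 50 were higher and 39 lower.

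**Figure D2:**
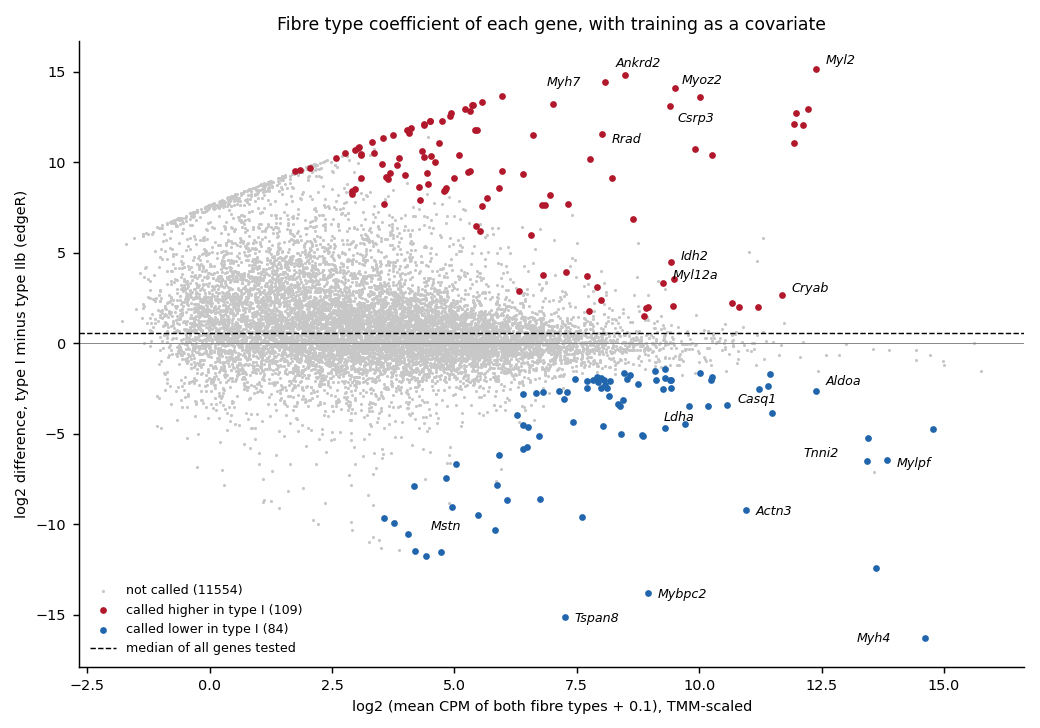
Each point is one of 11747 genes, with log2 of its mean CPM over both fibre types on the x axis and its log2 difference (type I minus type IIb, edgeR) on the y axis. The 109 genes called higher in type I are red, the 84 called lower are blue, and the dashed line is the median of all genes, 0.58.

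The 12 genes with the smallest p among those higher in type I with no overlap between fibre types were slow contractile and Z-disc genes together with a calcium channel regulator, a mitochondrial enzyme, a small heat shock protein and a regulatory myosin light chain of non-muscle type. Of these, 9 were absent or nearly absent from type IIb libraries, and 3 were present in both fibre types. Ankrd2, a stretch-responsive ankyrin repeat protein of the sarcomere, stood at 467, 710.3 and 1153 CPM in type I and 0, 0 and 0.0922 CPM in type IIb libraries. All 6 type I libraries were high, and 5 of 6 type IIb libraries held no count. The 82694 type I counts against 1 type IIb count gave a ratio of 45928 after scaling (95% counting interval 8243 to 1814070.0), a log2 difference of 14.85 ± 0.79 (SE) and an adjusted p of 1.14e-09 in edgeR. Myh7, the slow heavy chain, stood at 165, 455 and 1319 CPM in type I and 0, 0 and 0.0722 CPM in type IIb libraries, again with 1 count in one type IIb library and a ratio of 26982 (4843 to 1065760.0). Type I libraries varied widely, and none approached type IIb (log2 difference 14.44 ± 0.92, adjusted p = 6.24e-09, edgeR). Antisense genes, Mhrt among them, share 13.3% of its exon bases.

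Myoz2, a Z-disc protein that binds calcineurin, stood at 497, 1405 and 2527 CPM in type I and 0, 0.1 and 0.182 CPM in type IIb libraries. The groups were far apart, with a fold of 17429, a log2 difference of 14.10 ± 0.84 and an adjusted p of 2.67e-09 (edgeR). Sln, which encodes sarcolipin, a small inhibitor of the calcium pump, stood at 425, 1995 and 4223 CPM in type I and 0, 0.119 and 0.369 CPM in type IIb libraries, a 14560.0-fold difference (adjusted p = 1.25e-08, edgeR). Every type I library was above every type IIb library by a wide margin. Csrp3, the muscle LIM protein of the Z-disc, stood at 397, 701 and 4859 CPM in type I, where trained replicate 3 was the high library, and 0, 0.163 and 0.217 CPM in type IIb libraries. Its log2 difference was 13.13 ± 0.97 (adjusted p = 5.34e-08, edgeR). Myom3, an M-band myomesin, stood at 79.2, 231 and 492 CPM in type I libraries and had 1 count over the 6 type IIb libraries (log2 difference 13.23 ± 1.08, adjusted p = 2.43e-07, edgeR). Myl2, the slow regulatory light chain, stood at 3662, 8647 and 25396 CPM against 0, 0.292 and 0.738 CPM (log2 difference 15.15 ± 1.22, adjusted p = 1.46e-05, edgeR). Tnni1, slow troponin I, stood at 1193, 1923 and 2790.3 CPM against 0, 0.429 and 3.03 CPM (log2 difference 10.73 ± 1.14, adjusted p = 6.29e-05, edgeR).

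Rrad, a small GTPase that restrains voltage-gated calcium channels, stood at 234, 447 and 1034 CPM in type I and 0, 0.0542 and 0.866 CPM in type IIb libraries, with a log2 difference of 11.57 ± 1.10 and an adjusted p of 2.36e-06 (edgeR). No library overlapped between fibre types. The remaining 3 of the 12 were graded differences in genes that both fibre types expressed. Idh2, the mitochondrial NADP-dependent isocitrate dehydrogenase, stood at 881, 1262 and 1778 CPM in type I and 17.5, 65.8 and 123 CPM in type IIb libraries, a 17.2-fold difference (log2 4.52 ± 0.43, adjusted p = 2.52e-06, edgeR). Cryab, a small heat shock protein that binds desmin and titin, stood at 3914, 5947 and 7327 CPM against 667, 826 and 1463 CPM, a 6.02-fold difference (adjusted p = 7.22e-06, edgeR). Myl12a stood at 986, 1105 and 1298 CPM against 51.3, 107 and 173 CPM, a 9.25-fold difference (adjusted p = 9.33e-06, edgeR). In all 3 the lowest type I library lay above the highest type IIb library.

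The 12 genes with the smallest p among those lower in type I with no overlap were Mylpf, Mybpc2, Tspan8, Myh4, Casq1, Tpm1, Ldha, Sar1b, Myl1, Atp2a1, Mylf-ps and Aldoa. Mylpf, the fast regulatory light chain, stood at 113, 319 and 681 CPM in type I and 17819.6, 28338 and 39618 CPM in type IIb libraries. It was thus not silent in type I fibres but 77.8-fold lower, with no overlap (log2 difference -6.46 ± 0.37, adjusted p = 2.23e-09, edgeR). Mybpc2, the fast myosin-binding protein C, stood at 0, 0 and 0.133 CPM in type I and 188, 885 and 1820.5 CPM in type IIb libraries. Its 7 type I counts faced 58919 type IIb counts, a 15155-fold difference (log2 difference -13.80 ± 0.95, adjusted p = 1.75e-08, edgeR). Tspan8, a tetraspanin of the cell surface, had no count in any type I library and stood at 149, 295 and 557 CPM in type IIb libraries. Set against 3 counts over the type I group, it was at least 10704-fold higher in type IIb (adjusted p = 3.06e-07, edgeR). Myh4 stood at 0, 0.664 and 1.62 CPM in type I and 27102, 42075 and 102683 CPM in type IIb libraries, a 70408-fold difference (log2 difference -16.30 ± 0.94, adjusted p = 3.69e-07, edgeR).

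Casq1, the main calcium buffer of the fast sarcoplasmic reticulum, stood at 137, 221 and 464 CPM in type I and 1454, 2771 and 3938 CPM in type IIb libraries, a 10.3-fold difference (adjusted p = 3.06e-06, edgeR). Atp2a1, the fast calcium pump SERCA1, stood at 18.6, 72.4 and 138 CPM against 889, 1189 and 4094 CPM, where type IIb trained replicate 3 was the high library (log2 difference -4.48 ± 0.53, adjusted p = 3.99e-05, edgeR). Rabep2 covers 21.9% of its exon bases on the other strand, and the kit does not mark strand. Myl1, the fast essential light chain, stood at 425, 1771 and 4935 CPM against 32839.9, 53248 and 73354 CPM (adjusted p = 3.59e-05, edgeR), and Tpm1, alpha-tropomyosin, at 171, 479.6 and 1405 CPM against 11955, 19258 and 32603 CPM (adjusted p = 6.07e-06, edgeR). Both remained well above 0 in every type I library, and neither overlapped. Sar1b, a small GTPase that forms transport vesicles at the endoplasmic reticulum, stood at 80.6, 121 and 309 CPM against 1005, 1513 and 2261 CPM, a 12.1-fold difference (adjusted p = 3.27e-05, edgeR). Ldha, the lactate-forming subunit of lactate dehydrogenase, stood at 62.6, 192 and 341 CPM against 1093, 2238 and 2866 CPM, and Aldoa, muscle aldolase, at 669, 1419 and 2393 CPM against 6508, 8464 and 14638 CPM (adjusted p = 2.76e-05 and 6.29e-05, edgeR). Mylf-ps, annotated as a processed pseudogene, was 38.7-fold lower in type I (adjusted p = 4.41e-05, edgeR), and its reads may be shared with its parent light chain gene.

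**Figure D3:**
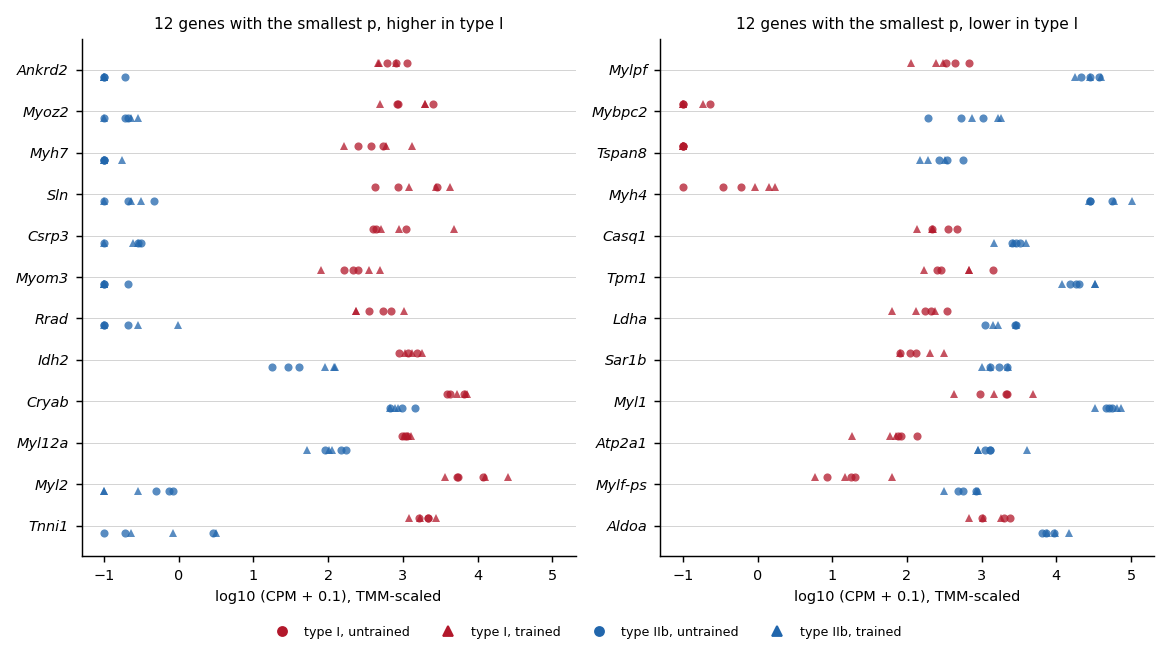
CPM of the 12 genes with the smallest p in each direction in every library (log10 axis, 0.1 added), with type I in red, type IIb in blue, circles for untrained and triangles for trained libraries. In all 24 genes the 6 libraries of one fibre type lie above the 6 of the other.

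Promoters are shown for 3 genes of each direction that had a single start in the RefSeq table (build GRCm38.p6) and the smallest p, because these genes carry the contrast between fibre types. Each line is the 250 bases before the annotated start, read 5′ to 3′ on the gene's strand. Ankrd2 is at chr19:42035777-42036026 (+), Myoz2 at chr3:123034988-123035237 (-), Myom3 at chr4:135759465-135759714 (+), Mylpf at chr7:127211358-127211607 (+), Mybpc2 at chr7:44524670-44524919 (-) and Tspan8 at chr10:115817034-115817283 (+). Capitals mark matches, on either strand, to the E-box CANNTG, the MCAT element CATTCC, the CACC box CCACCC and the MEF2 element.
Ankrd2: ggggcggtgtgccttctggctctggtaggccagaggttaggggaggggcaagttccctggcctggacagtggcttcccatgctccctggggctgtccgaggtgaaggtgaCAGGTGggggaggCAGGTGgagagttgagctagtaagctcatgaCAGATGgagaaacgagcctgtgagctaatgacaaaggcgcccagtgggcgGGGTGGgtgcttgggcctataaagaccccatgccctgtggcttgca
Myoz2: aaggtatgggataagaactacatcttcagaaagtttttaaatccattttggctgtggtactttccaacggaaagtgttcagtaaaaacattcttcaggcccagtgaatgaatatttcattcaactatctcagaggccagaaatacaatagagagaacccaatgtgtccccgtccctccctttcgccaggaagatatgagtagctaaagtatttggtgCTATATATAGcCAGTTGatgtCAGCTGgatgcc
Myom3: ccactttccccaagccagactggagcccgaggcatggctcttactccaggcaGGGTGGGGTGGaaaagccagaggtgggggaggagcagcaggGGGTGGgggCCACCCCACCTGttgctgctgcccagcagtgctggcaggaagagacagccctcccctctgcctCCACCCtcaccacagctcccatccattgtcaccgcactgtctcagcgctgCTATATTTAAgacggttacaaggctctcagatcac
Mylpf: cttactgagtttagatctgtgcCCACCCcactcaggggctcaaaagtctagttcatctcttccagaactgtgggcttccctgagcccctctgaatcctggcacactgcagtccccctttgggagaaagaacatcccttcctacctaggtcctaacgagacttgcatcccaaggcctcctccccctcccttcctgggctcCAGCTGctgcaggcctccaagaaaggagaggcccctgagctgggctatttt
Mybpc2: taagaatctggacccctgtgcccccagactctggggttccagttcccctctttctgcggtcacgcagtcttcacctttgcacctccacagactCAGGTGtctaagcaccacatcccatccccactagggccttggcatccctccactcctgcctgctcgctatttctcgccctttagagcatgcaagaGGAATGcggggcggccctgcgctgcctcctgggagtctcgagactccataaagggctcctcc
Tspan8: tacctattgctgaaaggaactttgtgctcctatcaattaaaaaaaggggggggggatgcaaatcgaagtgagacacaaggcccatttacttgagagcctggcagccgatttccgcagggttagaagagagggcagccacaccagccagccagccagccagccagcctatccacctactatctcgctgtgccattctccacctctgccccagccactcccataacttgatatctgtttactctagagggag
Among the genes higher in type I, the Ankrd2 window held 3 E-boxes and 1 CACC box, the Myoz2 window 2 E-boxes and 1 MEF2 element, and the Myom3 window 1 E-box, 1 MEF2 element and 5 CACC boxes. The leftmost pair of CACC boxes in Myom3 shares a base, and no other matches in the 6 windows overlap. Among the genes lower in type I, Mylpf held 1 E-box and 1 CACC box, Mybpc2 held 1 E-box and 1 MCAT element, and Tspan8 held no match. Of the called genes, 78 of 109 higher and 58 of 84 lower in type I were found in the table, with 119 and 77 windows, as a gene can have several. MEF2 elements were in 8 of 119 windows (6.72%) of the genes higher and 5 of 77 (6.49%) of those lower in type I. These few windows stood beside 1.91% for all genes tested and 2.92% for all windows of the table. E-boxes were in 71.4% and 68.8% of windows, beside 57.5% for genes tested and 66.2% for all windows. MCAT elements were in 10.1% and 15.6%, beside 10.7% and 12.6%, and CACC boxes in 33.6% and 41.6%, beside 32.4% and 28.1%. These shares are descriptions of letters in a window, and no binding was measured.

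Of 16 genes on the list of slow sarcomere and slow calcium handling genes, all 16 passed the filter and 15 were higher in type I, beside 0.928% over all genes, with a median log2 difference of 12.84 beside 0.58 over all genes. Pln, encoding the pump inhibitor phospholamban, was the exception (log2 difference 7.71, adjusted p = 0.111, edgeR), with overlapping libraries. Of the 14 genes of the fast list, 13 passed the filter and 11 were lower in type I, beside 0.715% over all genes, with a median of -6.46. Myh1 did not pass (log2 difference -2.09, adjusted p = 0.847, edgeR), and neither did Tnnt3. Both lists hold genes by which fibre types are defined, and the fibres were selected by myosin protein, so these counts describe the libraries and are no independent evidence. By DESeq2 14 of the slow and 8 of the fast genes were called, beside 652 higher and 164 lower over all genes. DESeq2 gave no adjusted p for Casq2 and Tnnc1 of the slow list or for Atp2a1, Tpm1, Myoz1 and Tnnt3 of the fast list. By limma-voom 10 and 5 were called, beside 757 and 238. With quality weights, limma-voom left Myh4 (adjusted p = 0.9998), Myl1 (0.992), Myl3 (0.83), Mylpf (0.816), Tnnc1 (0.706), Tpm3 (0.587), Tnnt1 (0.506), Myl2 (0.369), Atp2a2 (0.217), Tnni2 (0.187) and Tpm1 (0.095) uncalled, with the direction of edgeR kept in each and a log2 difference of -17.10 for Myh4.

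Slow and fast partner genes were set side by side per length, as the slow gene's share of the pair's summed FPKM. In 13 pairs with both genes measured, the share was higher in every type I library than in every type IIb library. The heavy chain pair Myh7 and Myh4 had a slow share of 99.8% to 100.0% in type I and at most 0.000317% in type IIb libraries. The calcium pumps Atp2a2 and Atp2a1 gave 96.8% to 99.7% against at most 1.01%, and the regulatory light chains Myl2 and Mylpf 87.6% to 98.6% against at most 0.00227%. Type I libraries retained more of the fast partner in other pairs. The essential light chains Myl3 and Myl1 gave 64.8% to 93.2%, the troponin I pair Tnni1 and Tnni2 50.7% to 99.6%, with type I untrained replicate 1 the lowest, and the calsequestrins Casq2 and Casq1 22.9% to 67.7%. In type IIb libraries the slow share of these 3 pairs stayed at or below 0.0167%, 0.0104% and 0.4%, in that order.

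The pair of myosin-binding protein C genes was asymmetric. Mybpc1, the slow-named form, stood at 1024, 1372 and 2532 CPM in type I and 721, 1248 and 1572 CPM in type IIb libraries, with overlapping groups (log2 difference 0.29 ± 0.29, adjusted p = 0.928, edgeR). The slow share of the pair was 39.4% to 77.3% in type IIb libraries and 100.0% after rounding in each type I library, where Mybpc2 had 7 counts in all. Actn2 and Actn3 encode the alpha-actinins of the Z-disc. Actn3 was 546-fold lower in type I (log2 -9.22 ± 1.03, adjusted p = 0.000183, edgeR), while Actn2 stood at 743, 925 and 1539 CPM in type I and 0, 51.01 and 309.6 CPM in type IIb libraries. Its groups did not overlap, but it did not pass (adjusted p = 0.354, edgeR). Fast troponin T, Tnnt3, stood at 0.995, 42.97 and 1186 CPM against 18368, 23009 and 33813 CPM. Its groups did not overlap, but the type I libraries varied widely, with untrained replicate 1 the highest, and it missed the threshold (log2 difference -7.13 ± 1.68, adjusted p = 0.0785, edgeR). Tnni2, fast troponin I, varied alike at 5.47, 66.1 and 1075 CPM against 14324, 19478 and 42349.8 CPM and passed (adjusted p = 0.0382, edgeR), a call lost (adjusted p up to 0.106, edgeR) without any library except type I untrained replicates 1 and 3, type IIb untrained replicate 1 and type IIb trained replicate 1. Its slow partner Tnni1 held its call throughout. Tnnc2, fast troponin C, had 1 count in type I and 3 in type IIb libraries and was not tested. Its exons overlap Ube2c on the other strand over 74.0% of their bases, and no slow share was read for this pair.

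**Figure D4:**
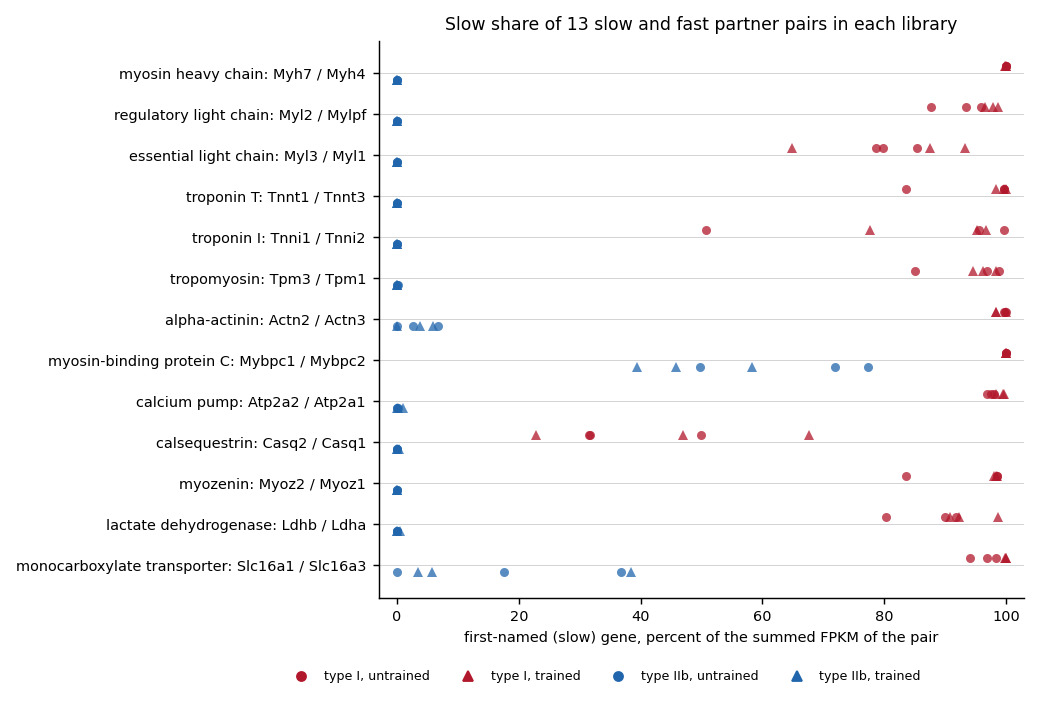
Share of the slow gene, as a percent of the summed FPKM of the pair, in each library for 13 pairs, with type I in red, type IIb in blue, circles for untrained and triangles for trained libraries. Red and blue points do not overlap in any pair, and the calsequestrin pair has the lowest type I shares, 22.9% to 67.7%.

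Other slow members added detail to the calcium store and thin filament. Atp2a2, the slow calcium pump SERCA2, stood at 4262, 6233 and 15741 CPM in type I and 0.129, 1.96 and 13.5 CPM in type IIb libraries (log2 11.06 ± 1.18, adjusted p = 0.000232, edgeR). Tnnt1 and Tpm3, slow troponin T and slow tropomyosin, stood at 2903, 7365 and 14633 CPM and 5519, 7412 and 15076 CPM in type I libraries and at medians of 0.46 and 0.758 CPM in type IIb libraries (adjusted p = 0.000761 and 0.00182, edgeR). Tnnc1, slow troponin C, stood at 5530.1, 6340.4 and 14387 CPM against 0, 0.227 and 32.5 CPM, and Casq2 at 84.3, 262 and 367 CPM against 0, 0 and 13.6 CPM. In each of these 5 genes every type I library was far above every type IIb library. The Tnnc1 and Casq2 calls (adjusted p = 0.0128 and 0.0153, edgeR) were lost without type IIb untrained replicate 2 (adjusted p = 0.0514 and 0.0727, edgeR). Myoz1, the fast partner of Myoz2, stood at 4.32, 20.7 and 96.4 CPM against 676, 774 and 1243 CPM and was 35.1-fold lower in type I (adjusted p = 0.000133, edgeR).

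Of 37 tested genes of the remaining Z-disc, M-band and scaffold list, 3 were higher in type I (Pdlim1, Lmod2 and Ablim1) and 2 lower (Actc1 and Myom2), beside 0.928% and 0.715% over all genes, with a median of 0.51. Pdlim1, a PDZ and LIM domain protein that binds alpha-actinin, stood at 260.0, 361 and 729 CPM in type I and 0, 0 and 5.20 CPM in type IIb libraries (log2 10.18 ± 1.70, adjusted p = 0.00439, edgeR). Lmod2, leiomodin 2, which nucleates actin at thin filament ends, stood at 357, 825 and 1263 CPM against 0.108, 1.96 and 33.2 CPM (log2 6.84 ± 1.16, adjusted p = 0.00479, edgeR). Neither gene overlapped between fibre types. Actc1, cardiac alpha-actin, went the other way at 2.74, 29.7 and 119 CPM against 108, 619 and 3576 CPM (log2 -4.70 ± 0.68, adjusted p = 0.000408, edgeR), with type I untrained replicate 3 just above type IIb trained replicate 3. Myom2, the myomesin of fast fibres, stood at 0, 0.736 and 1.34 CPM against 12.7, 55.4 and 162 CPM (adjusted p = 0.0235, edgeR). Its call was lost without any 1 of 5 libraries, the 3 type I untrained libraries, type IIb untrained replicate 2 and type IIb trained replicate 3 (adjusted p up to 0.0728, edgeR).

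Of 27 tested fibre type regulators, 2 were higher and 2 lower in type I, beside 0.928% and 0.715% over all genes. Maf, a large Maf transcription factor that activates Myh4, stood at 0.118, 16.1 and 56.8 CPM in type I and 249, 489 and 810.5 CPM in type IIb libraries (log2 -4.59 ± 0.82, adjusted p = 0.00392, edgeR). Tbx15, a T-box factor of glycolytic fibres, stood at 21.02, 77.9 and 157 CPM against 255, 451 and 565 CPM (log2 -2.50 ± 0.49, adjusted p = 0.00826, edgeR). Both were lower in type I without overlap. Vgll2, a cofactor of TEAD factors linked to slow fibres, stood at 66.3, 161 and 463 CPM against 6.01, 10.03 and 52.5 CPM and was 8.78-fold higher in type I (adjusted p = 0.0132, edgeR). That call was lost without type I untrained replicate 2 or type IIb trained replicate 3 (adjusted p up to 0.0685, edgeR). Rcan1, a feedback inhibitor and target of calcineurin, stood at 363, 732 and 1144 CPM against 52.98, 188 and 346 CPM, 3.69-fold higher in type I (adjusted p = 0.0319, edgeR), a call that held (otherwise adjusted p up to 0.113, edgeR) only in the leave-outs of type I untrained replicate 1, type I untrained replicate 3, type I trained replicate 2 and type IIb untrained replicate 3.

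Glycolytic enzymes turn glucose into pyruvate for fast energy supply. Of 15 tested genes, 10 were lower (Ldha, Aldoa, Pgam2, Eno3, Gapdh, Tpi1, Pkm, Pgk1, Gpd1 and Pfkm) and the median log2 difference was -2.49, beside 84 of 11747 (0.715%) over all genes. Pgam2, the muscle phosphoglycerate mutase, stood at 411, 683 and 1212 CPM in type I and 2366, 3920.2 and 6734 CPM in type IIb libraries (log2 -2.51 ± 0.33, adjusted p = 0.000133, edgeR). Eno3, muscle enolase, stood at 85.3, 265 and 727 CPM against 3088, 4277 and 9671 CPM, a 20.5-fold difference (adjusted p = 0.000176, edgeR). No type I library reached the lowest type IIb library in either gene. Hk2, the muscle hexokinase, was the single member with a positive value (log2 difference 1.25, adjusted p = 0.369, edgeR). DESeq2 called 11 and limma-voom 13 members lower, beside 164 and 238 over all genes.

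Glycogen is a stored fuel of muscle. Of 16 tested genes on the glycogen list, 5 were lower in type I, among them Phkb, Pygm, Ppp1r3a and Phka1, beside 0.715% over all genes. The median was -1.06, beside 0.58 over all genes. It was 0.69 with the 3 libraries of highest endothelial markers left out, beside 1.26 over all genes. On log2(FPKM + 0.1) it was 0.13, beside 1.47 over all genes. Phkb, the regulatory beta subunit of phosphorylase kinase, stood at 45.4, 66.03 and 86.2 CPM in type I and 307, 497 and 727 CPM in type IIb libraries (log2 -2.89 ± 0.40, adjusted p = 0.000232, edgeR). Pygm, muscle glycogen phosphorylase, stood at 26.7, 59.3 and 107 CPM against 142, 533 and 1399 CPM (log2 -3.36 ± 0.61, adjusted p = 0.00461, edgeR). Ppp1r3a, which targets protein phosphatase 1 to glycogen, stood at 159.8, 282 and 373 CPM against 711, 822 and 1731 CPM (log2 -1.90 ± 0.36, adjusted p = 0.0066, edgeR), and Phka1, the muscle alpha subunit of phosphorylase kinase, at 48.3, 60.7 and 147 CPM against 191, 508 and 792 CPM (log2 -2.46 ± 0.49, adjusted p = 0.0103, edgeR). All 4 separated fully, as did 69 of the 84 called genes lower in type I. They were named as called members with the smallest p, so their separation is no further evidence. The Phka1 call was lost without type IIb untrained replicate 2 (adjusted p = 0.0655, edgeR). Gys1, glycogen synthase, did not pass (log2 difference 0.46, adjusted p = 0.987, edgeR).

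Lactate handling split by isoform. Ldhb, the lactate-oxidising subunit, stood at 1363, 2006 and 4924 CPM in type I and 0.182, 0.355 and 16.7 CPM in type IIb libraries (log2 10.42 ± 1.33, adjusted p = 0.000898, edgeR), so that its share of the Ldhb and Ldha pair by FPKM was 80.3% to 98.7% in type I and at most 0.558% in type IIb libraries. Slc16a3, the lactate exporter MCT4, stood at 0, 0.487 and 4.74 CPM against 42.2, 87.4 and 261 CPM (log2 -7.86 ± 1.67, adjusted p = 0.0165, edgeR), a call lost without type I trained replicate 3 (adjusted p = 0.0559, edgeR). Slc16a1, the lactate importer MCT1, stood at 119, 183 and 608 CPM against 0.108, 27.2 and 97.3 CPM without overlap, but did not pass (adjusted p = 0.142, edgeR). Of the AMP-activated kinase subunits, Prkab2 stood at 14.96, 67.4 and 106 CPM against 242, 629 and 1089 CPM and Prkag3, the gamma subunit of glycolytic muscle, at 0.498, 5.83 and 14.5 CPM against 19.4, 154 and 395 CPM, and both were lower in type I (adjusted p = 0.00105 and 0.0115, edgeR). This list had 1 of 14 members higher and 3 lower, beside 0.928% and 0.715% over all genes.

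In the phosphocreatine and adenylate list, 3 of 10 tested genes were lower and 1 higher in type I, beside 0.715% and 0.928% over all genes. Ckm, the cytosolic creatine kinase, stood at 61.9, 172 and 267 CPM in type I and 589.9, 902 and 2115 CPM in type IIb libraries (log2 -2.54 ± 0.44, adjusted p = 0.0027, edgeR), and Ampd1, muscle AMP deaminase, at 168, 269.5 and 419 CPM against 797, 952 and 1625 CPM (log2 -2.01 ± 0.33, adjusted p = 0.00178, edgeR). Ckmt2, the mitochondrial creatine kinase, went the other way at 1564, 2951 and 9255 CPM against 280.1, 634 and 1768 CPM, with the lowest type I library inside the type IIb range (log2 2.02 ± 0.47, adjusted p = 0.0288, edgeR). Ak1, adenylate kinase, stood at 167, 270.1 and 384 CPM against 554, 809 and 1174 CPM (log2 -1.55 ± 0.34, adjusted p = 0.0222, edgeR). The Ckmt2 call was lost (adjusted p up to 0.0902, edgeR) without type I untrained replicate 2, type I trained replicate 1, type IIb untrained replicate 1 or 3, or type IIb trained replicate 1 or 2. The Ak1 call was lost (adjusted p up to 0.0685, edgeR) without replicate 3 of either type I group or type IIb untrained replicate 2.

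Mitochondria supply the slow fibre through the tricarboxylic acid cycle and the respiratory chain. In the tricarboxylic acid cycle list 3 of 27 tested genes passed, beside 1.64% over all genes. Mdh1, the cytosolic malate dehydrogenase, stood at 1568, 2381 and 5016 CPM in type I and 97.3, 559 and 1019 CPM in type IIb libraries (log2 2.20 ± 0.42, adjusted p = 0.0066, edgeR), and joined Idh2 on the side of type I. Idh3a, the NAD-dependent isocitrate dehydrogenase subunit, stood at 72.8, 104 and 139 CPM against 166, 400.1 and 587 CPM and was lower in type I (adjusted p = 0.0189, edgeR), a call lost without type I untrained replicate 3, type I trained replicate 3 or type IIb untrained replicate 2 (adjusted p up to 0.0837, edgeR). No member passed in edgeR among 36 nuclear subunits of complex I (2 at an unadjusted p under 0.05, 0 by DESeq2, 4 lower by limma-voom) or among 39 nuclear subunits of complexes III to V (2 at an unadjusted p under 0.05, 0 by DESeq2, 1 lower by limma-voom). Their medians were -0.18 and 0.07, and the first turned positive without TMM scaling (0.25, beside 1.14 over all genes in that setting). The tricarboxylic acid cycle list had a median of -0.04, which turned positive without TMM scaling (0.38, again beside 1.14 over all genes). The 13 mitochondrially encoded protein genes all had negative values, with a median of -1.13, and none passed in edgeR (6 at an unadjusted p under 0.05, 0 by DESeq2, 9 by limma-voom).

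Of 31 tested genes of fatty acid uptake and oxidation, 28 had positive values, with a median of 1.37, but 2 passed in edgeR, beside 0.928% higher over all genes. At an unadjusted p under 0.05, 14 were higher, beside 1114 of 11747 over all genes. Fabp3, the fatty acid binding protein of heart and slow muscle, stood at 553, 1307 and 2342 CPM in type I and 15.1, 125 and 205 CPM in type IIb libraries, a 9.53-fold difference with no overlap (log2 3.53 ± 0.59, adjusted p = 0.00195, edgeR). Acadl, long-chain acyl-CoA dehydrogenase, stood at 307, 609 and 2061 CPM against 50.9, 141 and 544 CPM with overlapping libraries (log2 2.00 ± 0.50, adjusted p = 0.0478, edgeR), a call that held (otherwise adjusted p up to 0.12, edgeR) only in the leave-outs of type I trained replicate 2, type I trained replicate 3, type IIb untrained replicate 2 and type IIb trained replicate 1. Lpl, lipoprotein lipase, and Cd36, a fatty acid transporter, were higher in every type I library but did not pass, with log2 differences of 5.04 and 5.57 (adjusted p = 0.099 and 0.17, edgeR). Both are also expressed by endothelial cells, and the part of those cells was not tested. Summed endothelial markers, without TMM scaling, ran from 1.96 to 2132 CPM in type I and from 0 to 390.0 CPM in type IIb libraries. Among mitochondrial regulators 1 of 19 passed, beside 1.64% over all genes. Esrrb, an orphan nuclear receptor, stood at 26.2, 41.1 and 72.02 CPM in type I and 0, 0 and 0.911 CPM in type IIb libraries (log2 8.81 ± 1.83, adjusted p = 0.0139, edgeR), lost without type IIb untrained replicate 2 (adjusted p = 0.0504, edgeR).

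Excitation-contraction coupling links the membrane signal to calcium release. On its list 5 of 25 tested genes were lower in type I (Trdn, Mrln, Calm3, Srl and Jph1), beside 0.715% over all genes, at a median of -0.91. Trdn, triadin, which anchors the calcium release complex, stood at 709, 1164 and 2949 CPM in type I and 3077, 3540.2 and 7971 CPM in type IIb libraries (log2 -1.67 ± 0.34, adjusted p = 0.0114, edgeR). Mrln, the micropeptide myoregulin that inhibits the calcium pump, stood at 21.1, 39.9 and 80.9 CPM against 88.5, 253 and 486 CPM (log2 -2.67 ± 0.56, adjusted p = 0.0139, edgeR). Calm3, a calmodulin gene, and Srl, sarcalumenin, stood at medians of 23.5 and 332 CPM in type I and 124 and 809 CPM in type IIb libraries (adjusted p = 0.039 and 0.0391, edgeR). These 4 genes separated fully between fibre types, as did 69 of the 84 called genes lower in type I. As called members with the smallest p, they give no further evidence by separating. The calls depended on settings: with the log10 number of genes detected as a further covariate none of the list was called, and without type I untrained replicate 3 there was 1. By single leave-outs, Mrln lost its call without type I untrained replicate 1 or 3 or type IIb trained replicate 1, and Trdn lost it in none. Srl kept its call only in the leave-outs of type I untrained replicate 2 and type IIb untrained replicate 1, type IIb trained replicate 1 and type IIb trained replicate 3, and Calm3 only in those of type IIb untrained replicate 3 and type IIb trained replicate 1. Genes detected differed between fibre types by 3392, as given above. Ryr1, the release channel itself, did not pass (log2 difference -1.54, adjusted p = 0.128, edgeR). No channel or sodium pump passed among 15 tested in edgeR (4 at an unadjusted p under 0.05, 2 by DESeq2, 3 by limma-voom).

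Mstn, myostatin, the secreted inhibitor of muscle growth, was nearly absent from type I fibres. It stood at 0, 0.0265 and 0.18 CPM in type I and 27.7, 93.9 and 244 CPM in type IIb libraries, a 1129.5-fold difference (log2 -10.32 ± 1.33, adjusted p = 0.000104, edgeR). Smox, spermine oxidase, stood at 0, 0.103 and 6.29 CPM against 36.2, 127 and 173 CPM (adjusted p = 0.0356, edgeR), a call that held (otherwise adjusted p up to 0.0856, edgeR) only in the leave-outs of type I untrained replicates 1 and 3, type I trained replicate 1, type IIb untrained replicate 3 and type IIb trained replicate 3. They were the 2 of 25 tested growth and atrophy genes that passed, beside 1.64% over all genes. Of 14 tested myokines and secreted factors, 1 was higher (Bdnf) and 1 lower (Mstn) in type I, beside 0.928% and 0.715% over all genes. The median was 4.63, beside 0.58 over all genes. At an unadjusted p under 0.05, 7 were higher, beside 1114 of 11747 over all genes. DESeq2 called 6 higher (652 over all genes) and limma-voom 8 (757 over all genes). Bdnf, a neurotrophin, stood at 16.6, 22.7 and 156 CPM against 0, 0 and 1.88 CPM (log2 8.39 ± 1.81, adjusted p = 0.0178, edgeR), lost without type I trained replicate 2 or type IIb untrained replicate 2 (adjusted p up to 0.0561, edgeR). Of 23 tested heat shock genes 3 were higher in type I, beside 0.928% over all genes: Cryab, Hspb6 and Hspb1. Hspb6 stood at 768, 2302 and 5292 CPM against 230.0, 761 and 935 CPM and Hspb1 at 518, 1159 and 1707 CPM against 113, 199 and 694 CPM, and 1 type I library of each lay inside the type IIb range (adjusted p = 0.0128 and 0.0164, edgeR). The Hspb1 call was lost without any 1 of type IIb untrained replicate 1, type IIb trained replicate 1 and type IIb trained replicate 2 (adjusted p up to 0.0604, edgeR).

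Of 22 tested immediate early genes, 1 was higher in type I in edgeR, Rrad, beside 0.928% over all genes. The median was 1.91, beside 0.58 over all genes. At an unadjusted p under 0.05, 7 were higher in type I, beside 1114 of 11747 over all genes. DESeq2 called 4 higher (652 over all genes) and limma-voom 6 (757 over all genes). None passed in edgeR among 23 antioxidant genes (5 at an unadjusted p under 0.05, 1 by DESeq2, 1 by limma-voom), 18 clock genes (2, 0 and 0) or 12 neuromuscular junction genes (0, 1 and 1). Over all genes 1.64% passed in edgeR and 1451 of 11747 had an unadjusted p under 0.05, while DESeq2 called 816 and limma-voom 995.

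**Figure D5:**
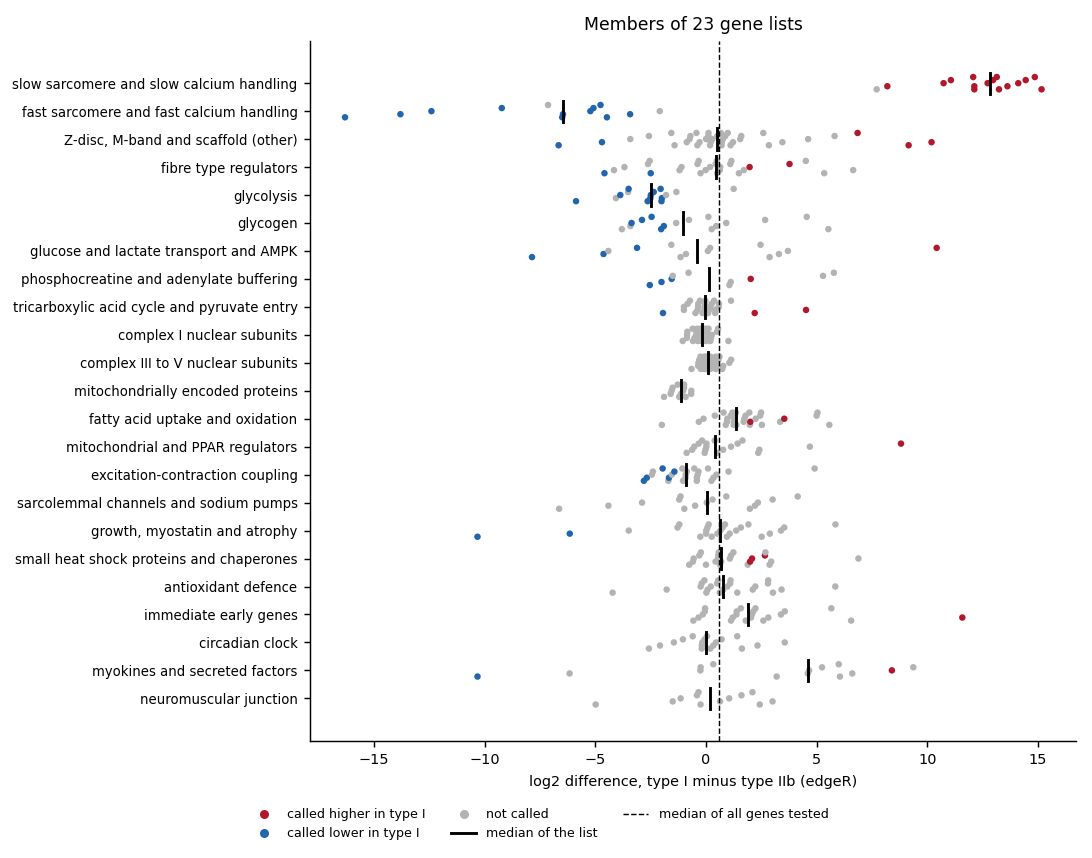
Log2 difference (type I minus type IIb, edgeR) of each tested member of 23 gene lists, with called genes in red (higher in type I) and blue (lower), other members in grey, a black bar for each list's median and a dashed line for the median of all genes, 0.58. The slow and fast contractile lists have medians of 12.84 and -6.46, and glycolysis has -2.49.

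The single coefficient assumes the same fibre type difference with and without training, and the model with an interaction term tested that. No gene passed in edgeR (smallest adjusted p = 0.418), while 1050 had an unadjusted p under 0.05, 19 of them among the 193 called genes. DESeq2 called 414 and limma-voom 3, and leaving out single libraries gave 0 to 2, with 1 without type IIb untrained replicate 1 and 2 without type IIb trained replicate 3. A model with a mean per group, fitted to all 12 libraries, compared the fibre types within each arm. There 54 genes (0.46%) passed for untrained and 63 (0.536%) for trained mice. Ankrd2 had log2 differences of 14.40 in untrained and 15.98 in trained mice, Myoz2 14.25 and 13.94, Casq1 -3.06 and -3.80, and Mstn -9.95 and -10.71. The values for Idh2 were 5.38 and 3.65 (interaction adjusted p = 0.433, edgeR), and those for Slc16a3 were -4.67 and -12.34 (interaction adjusted p = 0.418, edgeR). Pygm gave -2.25 and -4.48, and Pdlim1 15.61 and 7.86 (interaction adjusted p = 0.504 and 0.418, edgeR).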

How the data were processed

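RNA of single fibre pieces was amplified with SMART-Seq HT and sequenced from Nextera XT libraries, per the labels' protocols. The kit does not mark strand and has no molecular identifiers, so counting intervals and floors cover counting error only, and overlapping or antisense genes cannot be separated. Genes on the other strand share 19.6% of the exon bases of Fabp3, 15.5% of Ckm and 14.4% of Bdnf. Hspb2, on the other strand, shares 17.04% of those of Cryab. Myl12b on the same strand and Myom1 on the other share 19.91% of those of Myl12a. The part of these overlaps in the differences given for Cryab and Myl12a was not tested. The authors deposited raw read counts per gene, and TopHat2 and the mouse build mm10 are named in the submitters' processing notes. The authors also deposited FPKM values, used here only to compare levels between genes and as an alternative. Not given in the sources used here are the counting program, versions, the annotation release and any filters. Of the gene identifiers, 99.35% of those found in GENCODE vM21 had the same coordinates there.

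Samples were grouped by title. Library totals ran from 8026397 to 24995288 counts, where 1 count was worth 0.04 to 0.125 CPM before TMM scaling. On the TMM scale used for the gene levels, 1 count was worth 0.182 CPM in type IIb trained replicate 2, the library with the lowest total. Genes were kept with filterByExpr (minimum count 10, minimum total 15). The model had training and fibre type as terms, and was fitted with TMM scaling and robust quasi-likelihood in edgeR 4.0.16 (R 4.3.3) with Benjamini-Hochberg adjustment at 0.05. The SE was taken from the F statistic, as the log2 difference over its root. The fit was tested on simulated data. Folds are ratios of pooled, TMM-scaled counts. Where all libraries of a group were at 0, a bound was computed with 3 counts assumed for that group, and with 1 to 3 counts a 95% Clopper-Pearson counting interval is given. Values per library were tested by exact two-sided permutation within training arms (400 arrangements). Alternatives used DESeq2 1.42.0, limma 3.58.1, other scalings, filters and covariates, a replicate block and left-out libraries. RefSeq promoter windows were matched by symbol.

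The genes named are the 12 with the smallest p in each direction whose groups do not overlap, the partner pairs, and up to 4 called members of each list, with uncalled list members named by value only. Further names are said to be chosen after their values were seen, or are called members of a list. One called gene is not reported here by name. The comparison, members and gene lists were chosen with earlier results of these data known.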

Additional observations from a re-analysis of the deposited data

Results flagged for a closer look

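In each group of 6 libraries of a fibre type, a single library whose log2(CPM + 1) stood apart from the other 5 by a gap above Dixon's 95% critical value was looked for among the 73 named genes, as was a library apart in the number of genes detected or the mitochondrial share, both unlogged. This picked out 19 of 150 groups (12.7%), in 18 genes, where chance gives about 5% of groups with an even spread. That share does not apply to the type IIb groups of Ankrd2, Bdnf, Myh7, Myom3 and Pdlim1, where the other 5 libraries are at 0 and any count in the sixth meets the rule. The check was first run on linear CPM, where it picked out 35, and the log2 scale was chosen after that was seen. Both scales shared 15, with 20 on the linear scale alone and 4 on the log2 scale alone.

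Type IIb trained replicate 3 was the high library in 7. It held 4094 CPM of Atp2a1, 1.88 CPM of Bdnf, 13.6 CPM of Casq2, 16.7 CPM of Ldhb, 0.0722 CPM of Myh7, 5.2 CPM of Pdlim1 and 0.866 CPM of Rrad. For these genes other than Atp2a1, the level stayed below that of every type I library. Type IIb trained replicate 2 was high for Esrrb (0.911 CPM), Tnni2 (42350 CPM), Tnnt1 (8.56 CPM) and Trdn (7971 CPM). Type IIb untrained replicate 2 was high for Myl3 (9.82 CPM), replicate 3 for Ankrd2 (0.0922 CPM) and replicate 1 for Myom3 (0.108 CPM), where the value for Ankrd2 and that for Myom3 were 1 count each. Type IIb untrained replicate 1 was the low library for Hspb6 (230.0 CPM) and Slc16a1 (0.108 CPM). In type I fibres the low libraries were trained replicate 1 for Calm3 (5.35 CPM) and trained replicate 2 for Casq2 (84.3 CPM) and Prkab2 (14.96 CPM).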

How the results depend on the processing

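Neither the 73 named genes nor the tested differences reversed under the alternatives run, but several list medians changed sign over them. These ran from -1.45 to 0.69 for glycogen, -1.19 to 0.81 for glucose and lactate transport and AMPK, -1.11 to 0.59 for phosphocreatine and adenylate buffering, -0.19 to 1.27 for fibre type regulators, -0.23 to 1.28 for growth genes, -0.29 to 0.58 for the tricarboxylic acid cycle, -0.52 to 0.36 for complex I and -0.33 to 0.53 for complexes III to V. Against 109 genes higher and 84 lower in type I, 54 were lower without scaling, 189 higher with no filter, and 170 higher at a minimum count of 50. DESeq2 gave 652 and 164, limma-voom 757 and 238, and limma gave 469 higher on log2(FPKM + 1) and 452 on log2(FPKM + 0.1). Untrained mice alone gave 39 and 43, and trained mice alone 30 and 33, from fewer libraries. Over the 12 leave-outs of 1 library, genes higher ranged from 66 to 140, genes lower from 52 to 91, and interaction calls from 0 to 2. The interaction count of 0 became 26 with no filter, 414 by DESeq2 and 3 by limma-voom. The cause of these moves was not tested. Alternatives chosen after seeing the data gave 50 and 39 without the 3 libraries of highest endothelial markers, and 55 and 47 without type I untrained replicates 1 and 3. Of 73 named genes, 69 were called, 50 of them in every leave-out of 1 library and 23 in every alternative that gave the gene an adjusted p. Beside the contractile genes named in the report, limma-voom did not call Hspb6 (adjusted p = 0.359), Ckmt2 (0.28), Acadl (0.122), Fabp3 (0.0635) or Mdh1 (0.0538), and DESeq2 did not call Srl (0.117), Ak1 (0.0914) or Trdn (0.0737). DESeq2 gave no adjusted p for the called genes Atp2a1, Tpm1, Myoz1, Pdlim1, Casq2 and Tnnc1. Each of these was followed over 29 alternatives, where most named genes had 30. The median over all genes, 0.58, ran from 0.13 with the number of genes detected as a covariate to 1.47 on log2(FPKM + 0.1). It was 0.71 with RLE scaling, 1.14 without scaling, 1.46 with the replicate block, and 0.28 (without type IIb untrained replicate 1) to 0.96 (without type IIb trained replicate 3) in leave-outs.

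The fibre type difference in genes detected, 3392 (p = 0.08, exact permutation), was 5146 when genes with 1 count were included (p = 0.03, exact permutation), and 2516 to 4247 in leave-outs. The fibre type difference in mitochondrially encoded share, -9.03 percentage points, was -11.5 to -7.36 in leave-outs.

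Deviations of same-numbered libraries correlated at -0.0439 to 0.0547 in 5 of 6 pairs and at 0.199 in the sixth, type I and type IIb trained replicate 3. Libraries with different numbers correlated at -0.144 to 0.0647. With 3 libraries per group and no labels linking numbers to mice, these values cannot say whether same-numbered libraries are paired. With the replicate block 77 genes were higher and 61 lower. Exact sign flips within same-numbered libraries, as a replicate block, gave p = 0.0312 for the fibre type difference in genes detected (3392) and p = 0.0625 for the fibre type difference in mitochondrially encoded share (-9.03).

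At this depth, genes near 1 count per library could not be compared, and 3 counts over a group set the folds of genes absent from it.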

Other observations

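The genes below are called genes chosen after their values were seen. Cyfip2, a regulator of actin through the WAVE complex, stood at 57.7, 78.6 and 165 CPM in type I libraries and at 0 in every type IIb library, at least 1618-fold higher (adjusted p = 0.000232, edgeR). Dkk2, a secreted Wnt modulator, stood at 20.4, 93.4 and 146 CPM in type I libraries and at 0 in every type IIb library (adjusted p = 0.000664, edgeR), and Rspo3, an activator of Wnt signalling, at 15.4, 49.8 and 76.5 CPM against 0, 0 and 0.0722 CPM (adjusted p = 0.00101, edgeR). Khdrbs3, an RNA-binding splicing factor, stood at 81.5, 148 and 323 CPM against 0, 0 and 1.30 CPM (adjusted p = 0.000276, edgeR). Bdh1, which interconverts ketone bodies, stood at 22.03, 44.3 and 70.9 CPM against 0, 0 and 0.184 CPM (adjusted p = 0.00272, edgeR). No library overlapped between fibre types in these 5 genes, and none lost its call in a leave-out.

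Among genes higher in type IIb, Ddit4l, an inhibitor of mTOR signalling, stood at 23.6, 51.3 and 92.00 CPM in type I and 389, 641 and 872 CPM in type IIb libraries (adjusted p = 7.9e-05, edgeR). Cib2, a calcium- and integrin-binding protein, stood at 0, 0.245 and 1.86 CPM against 64.3, 138 and 615 CPM (adjusted p = 0.00132, edgeR). Shisa2 stood at 0, 7.66 and 9.54 CPM against 44.5, 179 and 487 CPM (adjusted p = 0.0092, edgeR). Pvalb, parvalbumin, the calcium buffer that speeds relaxation, stood at 0.373, 1.19 and 73.6 CPM against 12793, 20408 and 56005 CPM (adjusted p = 0.0164, edgeR), and its call was lost without type I untrained replicate 2 or type I trained replicate 3 (adjusted p up to 0.0532, edgeR). All 4 separated fully. Myhas, an antisense transcript of the fast myosin cluster, stood at 0, 0 and 0.0445 CPM against 0.542, 71.2 and 89.3 CPM (adjusted p = 0.00232, edgeR), and without strand its reads cannot be told apart from those of overlapping genes.

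Mgp, matrix Gla protein, stood at 0, 0.826 and 1152 CPM in type I and 0, 0 and 0.184 CPM in type IIb libraries, and its log2 differences were 11.87 in untrained and 0 in trained mice. Without type I untrained replicate 3, which had the highest fibroblast and tendon marker sums (9262 and 4521 CPM, without TMM scaling), the calls of Mgp, Cilp, Mfap5, Thbs2, Col6a2, Aspn and Emp1 were lost, with adjusted p of 0.54, 0.152, 0.124, 0.11, 0.0686, 0.136 and 0.165 (edgeR). In that leave-out 39 of the 109 called genes higher and 33 of the 84 lower in type I lost their call. These 7 genes also lost their calls in other leave-outs, with 3 leave-outs in all for Col6a2, 4 for Mgp, 5 for Cilp, 7 for Thbs2, 9 each for Mfap5 and Emp1 and 10 for Aspn. The part of fibroblasts in these calls was not tested.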
